A study of Arabidopsis thaliana with 22 samples.

Results

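The genes described here are 4 genes of the *Arabidopsis thaliana* trichome activator complex and its relatives, *GL1* (AT3G27920), *EGL3* (AT1G63650), *TTG1* (AT5G24520) and *ATMYC1*, and the downstream genes *GL2* and *TTG2*. They were chosen by name and role, with earlier results of these data known. They account for 6 of the 22746 probe sets analysed on the ATH1 arrays, 1 probe set per gene. The arrays measured RNA from seedlings of 2 transgenic lines, a *gl1* mutant with pGL1::GL1-GR and a *gl3 egl3* double mutant with pGL3::GL3-GR. For both lines the study's array methods name green tissues, while its RNA extraction for DEX treatments names green tissues or whole seedlings. The question was which genes respond when the fusion is activated. Each line was treated with dexamethasone (DEX) or with its solvent ethanol (Mock) and collected after 4 or 24 hours, with 3 arrays per group, or 2 per group for GL3-GR at 24 hours. The labels give the transgene, treatment, time and sample number. The mutant backgrounds come from the study's methods. Mock and DEX plants of a line carried the same transgene and the same mutation, so no group was wild type. Each fusion was driven by the factor's own promoter, and RNA came from pooled seedlings.

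A trichome is a single-celled leaf hair, and its fate is set in young epidermal cells by a complex of an R2R3-MYB factor (GL1), a bHLH factor (GL3 or EGL3) and the WD40-repeat protein TTG1. The complex activates *GL2*, which encodes a homeodomain-leucine zipper factor needed for trichome outgrowth, and *TTG2*, which encodes a WRKY factor. It also activates the small R3 MYB repressors, which move to neighbouring cells and compete with GL1 for the bHLH partner. A factor fused to GR, the hormone-binding domain of a steroid receptor, is held inactive until DEX is added. Trichome initials are few among the cells of a leaf. In bulk RNA such as this, fewer cells of a type and less RNA per cell cannot be told apart.

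How many of these genes rose above the floor differed between the sets of arrays, from 4 in GL1-GR at 4 hours to 1 in each of the others, and this set what could be compared. The deposited values are log2 GCRMA levels, and with GCRMA the probe sets without signal pile up at the bottom of each array, where small differences do not rank them. The lowest value of an array was 2.099 to 2.101 for GL1-GR at 4 hours, 1.97 for GL1-GR at 24 hours, 2.25 to 2.26 for GL3-GR at 4 hours and 2.05 for GL3-GR at 24 hours. A gene was counted at the floor of a set (all arrays of 1 line and time) when every array lay within 0.5 of its own lowest value. Of the 24 combinations of gene and set, 13 were at the floor, 4 were partly at the floor and 7 were above it. In GL1-GR at 4 hours only *TTG2* was at the floor and *GL1* was partly so, while *EGL3*, *TTG1*, *ATMYC1* and *GL2* lay above it. In GL1-GR at 24 hours *GL1*, *EGL3*, *ATMYC1*, *GL2* and *TTG2* were at the floor. In GL3-GR at 4 hours *GL2* and *TTG2* were at the floor and *GL1*, *EGL3* and *ATMYC1* were partly so. In GL3-GR at 24 hours the 5 genes other than *TTG1* were again at the floor. *TTG1* was above the floor on all 22 arrays.

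**Figure D1:**
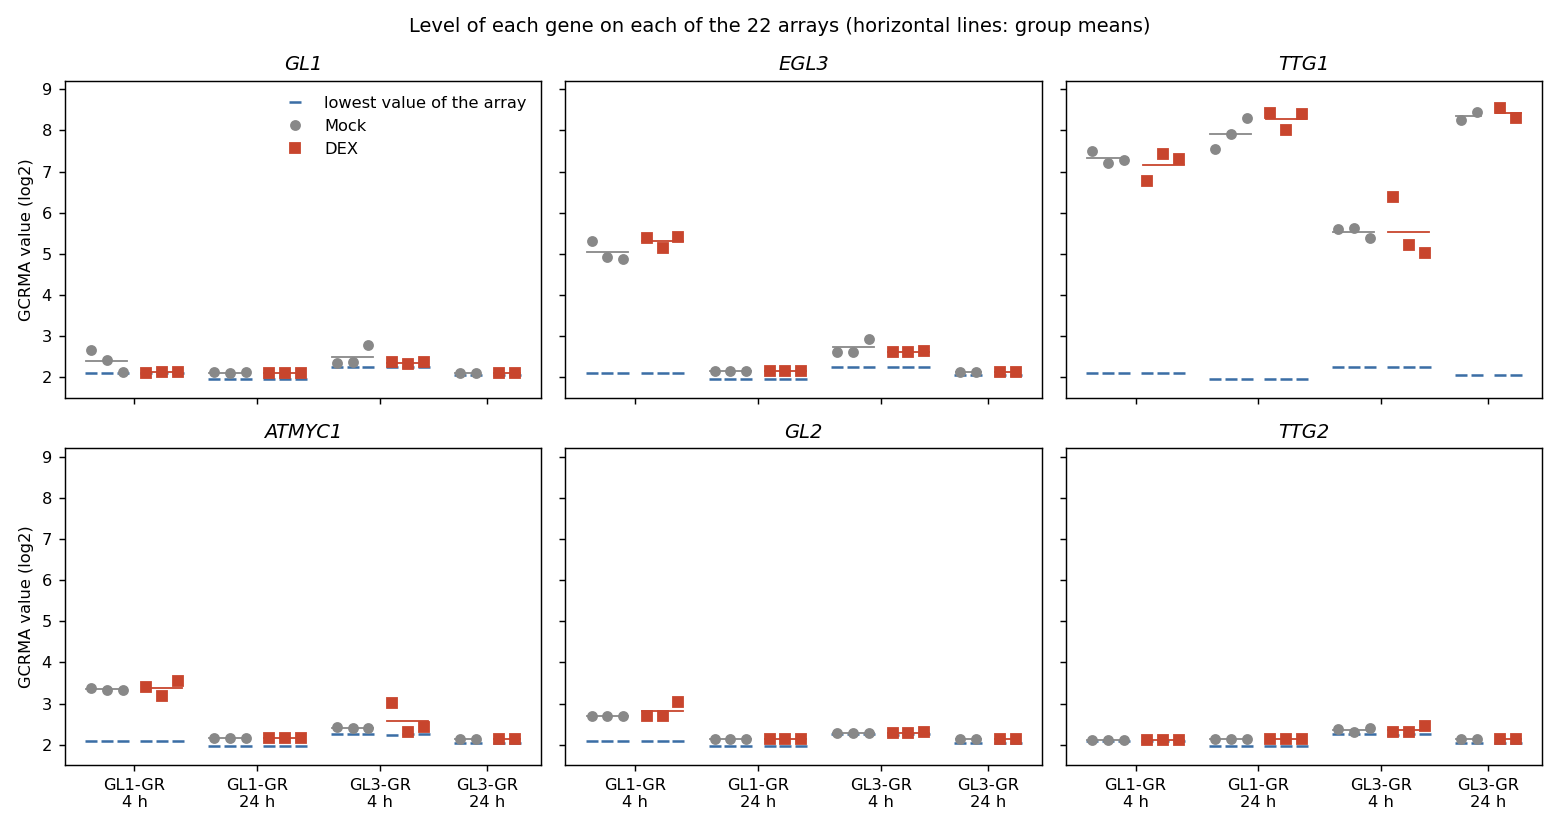
Log2 GCRMA value of each gene (vertical axis, 1 panel per gene) on each of the 22 arrays, grouped along the horizontal axis by line and time, with Mock as grey circles, DEX as red squares, group means as horizontal lines and the lowest value of each array as a blue dash. *TTG1* lies well above the dashes in all 4 sets, *EGL3* only in GL1-GR at 4 hours, and *TTG2* lies close to them throughout.

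These sets also differed as wholes. Array medians were 5.96 to 6.06 in GL1-GR at 4 hours, 4.45 to 4.58 in GL1-GR at 24 hours, 3.62 to 3.72 in GL3-GR at 4 hours and 4.67 to 4.72 in GL3-GR at 24 hours. The residual SD across probe sets was 0.481 in GL3-GR at 4 hours and 0.160 to 0.243 in the other sets, and arrays of the former correlated at 0.937 to 0.979 against 0.992 to 0.998 in the latter. DEX was therefore compared with Mock within each set. Of 10 green tissue markers, the 2 with a named probe set, *LHCB4.1* and *RCA*, were at 10.6 to 13.7 on every array. Of 8 root markers 4 had a probe set, and these were split. The root hair expansins *EXPA7* and *EXPA18* were at the floor of all 4 sets, whereas *PYK10*, a beta-glucosidase gene of root and seedling tissue, had group means of 9.45 to 13.2 in every set. The peroxidase gene *PRX57* had group means of 6.11 to 7.70 in GL1-GR and 3.40 to 3.61 in GL3-GR at 4 hours, and was at the floor in GL3-GR at 24 hours. The epidermal gene *FDH* and the guard cell gene *FAMA*, the 1 measured marker of each list, were above the floor in every set.

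The MYB member, *GL1*, is mutated in the GL1-GR line and is also the factor carried by its transgene. At 4 hours it measured 2.66, 2.44 and 2.12 on the Mock arrays of GL1-GR and 2.12 on each of the 3 DEX arrays. Mock samples 1 and 2 were the higher arrays, and only the first of them lay more than 0.5 above its lowest value. In GL3-GR at 4 hours *GL1* measured 2.35, 2.38 and 2.80 under Mock and 2.38, 2.32 and 2.39 under DEX. Here Mock sample 3 stood alone above the others. At 24 hours *GL1* was at 2.12 on all 10 arrays of both lines. No set had *GL1* above the level needed for a test, so its values carry no comparison. Whether this probe set lies in the part of *GL1* that the mutant or the fusion retains is not given in the sources used here, and its level does not check the labels. *GL3* had no named probe set.

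Among the bHLH members, *EGL3*, which acts redundantly with *GL3* and is mutated in the GL3-GR line, had a clear signal in 1 set. In GL1-GR at 4 hours it measured 5.31, 4.92 and 4.89 under Mock and 5.40, 5.15 and 5.42 under DEX. These values lay 2.79 to 3.32 above the lowest value of their arrays, and the Mock and DEX ranges overlapped. In GL3-GR at 4 hours *EGL3* read 2.63, 2.62 and 2.94 under Mock and 2.62, 2.62 and 2.64 under DEX. Mock sample 3 was again the array that stood above the other 5. At 24 hours *EGL3* read 2.15 to 2.16 in GL1-GR and 2.14 in GL3-GR. In the order of the group means, GL1-GR DEX at 4 hours (5.32) came first and GL1-GR Mock at 4 hours (5.04) second, with overlapping arrays. Both GL3-GR groups of 4 hours and all 24-hour groups follow at or near their floors, where no order can be given.

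*ATMYC1* encodes a bHLH protein related to GL3 and EGL3 that also takes part in epidermal patterning. In GL1-GR at 4 hours it read 3.37, 3.34 and 3.34 under Mock and 3.39, 3.18 and 3.56 under DEX, which is 1.08 to 1.46 above the lowest value. The 3 Mock arrays lay between the lowest and the highest DEX array. In GL3-GR at 4 hours it read 2.44, 2.40 and 2.41 under Mock and 3.02, 2.32 and 2.42 under DEX. A single array, DEX sample 1, carried the high value. At 24 hours *ATMYC1* read 2.16 in GL1-GR and 2.14 in GL3-GR on every array.

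*TTG1*, the WD40 member, which also serves anthocyanin and seed coat pigmentation, was the one gene measured in all groups. In GL1-GR at 4 hours it read 7.49, 7.21 and 7.29 under Mock and 6.77, 7.42 and 7.31 under DEX. The other arrays lay close together, and DEX sample 1 lay below them. In GL1-GR at 24 hours *TTG1* read 7.55, 7.92 and 8.30 under Mock and 8.43, 8.002 and 8.40 under DEX, with DEX sample 2 inside the Mock range. In GL3-GR at 4 hours it read 5.60, 5.63 and 5.40 under Mock and 6.39, 5.21 and 5.02 under DEX. DEX sample 1 was above, and DEX samples 2 and 3 below, all Mock arrays. This DEX array, which also carried the high *ATMYC1* value, held the highest value of its set for 28.9% of the probe sets tested, against 8.31% to 19.5% for the other 5 arrays. In GL3-GR at 24 hours *TTG1* read 8.25 and 8.45 under Mock and 8.53 and 8.29 under DEX, and the groups overlapped.

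Group means of *TTG1* on the log2 scale ran from 8.41 (GL3-GR DEX, 24 hours) through 8.35 (GL3-GR Mock, 24 hours), 8.28 (GL1-GR DEX, 24 hours), 7.92 (GL1-GR Mock, 24 hours), 7.33 (GL1-GR Mock, 4 hours) and 7.17 (GL1-GR DEX, 4 hours) to 5.54 in both GL3-GR groups of 4 hours. Neighbours in this order overlapped, apart from the steps between the 24-hour and 4-hour GL1-GR Mock groups and between GL1-GR DEX and GL3-GR Mock at 4 hours. Ranked within its array, which does not use the log2 scale, *TTG1* gave another order. It stood at the 56.3 to 64.6 percentile in GL1-GR at 4 hours, 67.1 to 73.8 in GL1-GR at 24 hours, 68.2 to 77.7 in GL3-GR at 4 hours and 71.6 to 74.3 in GL3-GR at 24 hours. On this scale the GL1-GR groups of 4 hours were lowest, and the other 6 groups overlapped from neighbour to neighbour.

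**Figure D2:**
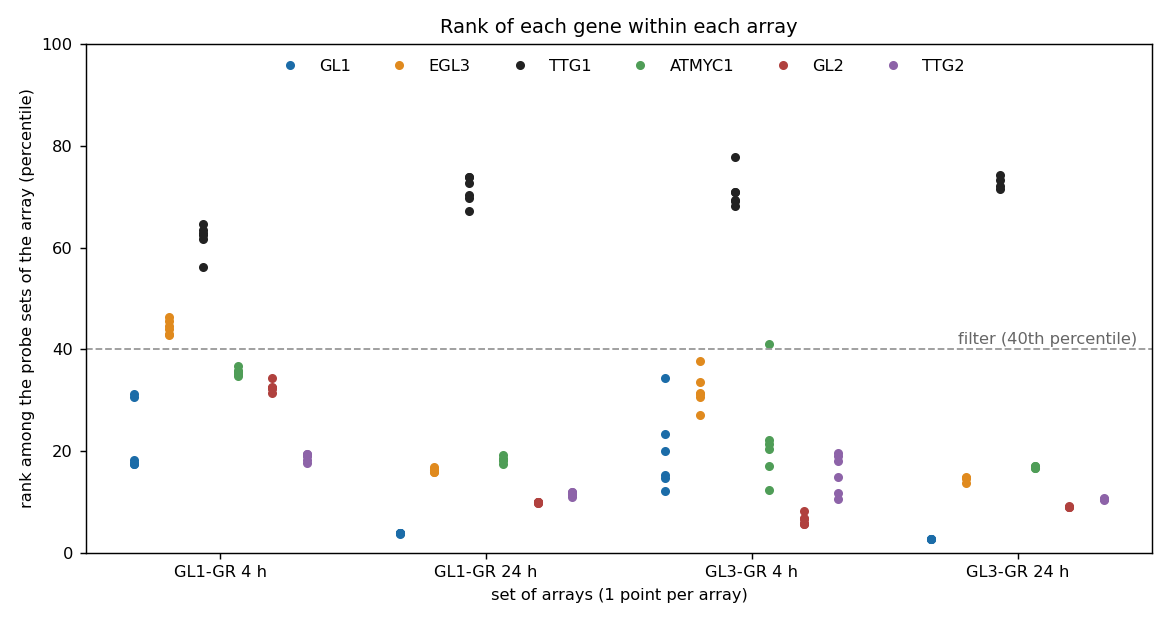
Rank of each gene among the probe sets of its array (vertical axis, percentile), 1 point per array, for the 4 sets of arrays along the horizontal axis, with the 40th percentile used as the filter dashed. *TTG1* lies above the filter on every array, *EGL3* only in GL1-GR at 4 hours (42.9 to 46.3), and *ATMYC1* on 1 array of GL3-GR at 4 hours.

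The target *GL2* was low in every set. It read 2.70, 2.69 and 2.70 under Mock and 2.70, 2.70 and 3.04 under DEX in GL1-GR at 4 hours, which is 0.60 to 0.94 above the lowest value of each array. Of these 6 arrays 5 held the same value within 0.05, and DEX sample 3 alone was higher. Such a repeated value (all arrays, or all but 1, within 0.05 of the lowest value of the probe set) occurred for 31.7% of all probe sets in that set, and for 1.46% of those in the upper part of the ranks, above the median. Counted by this definition, chosen after seeing the data, *GL2* joins *TTG2* at the floor of GL1-GR at 4 hours. *GL2* was at 2.29 to 2.30 in GL3-GR at 4 hours, 2.14 in GL1-GR at 24 hours and 2.13 in GL3-GR at 24 hours. The target *TTG2* did not exceed 0.20 above the lowest value on any of the 22 arrays. It read 2.12 on the GL1-GR arrays of 4 hours, 2.15 on those of 24 hours and 2.13 to 2.14 on the GL3-GR arrays of 24 hours. In GL3-GR at 4 hours *TTG2* read 2.38, 2.31 and 2.40 under Mock and 2.31, 2.31 and 2.46 under DEX. A change of *GL2* or *TTG2* below detection could not have been seen on these arrays, and no fold change is given.

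A probe set was tested within a set of arrays when it lay above the 40th percentile of at least 2 of them, a level of 4.30 to 4.43 in GL1-GR at 4 hours and 2.38 to 3.11 in the other sets. Only *TTG1* (in all 4 sets) and *EGL3* (in GL1-GR at 4 hours) met this, and in neither gene did the change under DEX pass the test. *EGL3* was at 5.04 ± 0.23 (SD, n = 3) under Mock and 5.32 ± 0.15 (SD, n = 3) under DEX at 4 hours in GL1-GR. The log2 change was 0.28 (SE 0.14, 95% interval −0.06 to 0.63, limma adjusted p = 0.681), with overlapping arrays. It was larger in size than the changes of 86.1% of the probe sets tested there. The interval leaves room for a small decrease and for a rise of up to 0.63.

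For *TTG1* the log2 change under DEX was −0.16 in GL1-GR at 4 hours (SE 0.18, 95% interval −0.60 to 0.28, limma adjusted p = 0.837). Without DEX sample 1, the low array, it was 0.036. In GL1-GR at 24 hours it was 0.35 (SE 0.22, interval −0.20 to 0.91, limma adjusted p = 1.00), larger in size than 93.4% of the changes tested. Without Mock sample 1 it was 0.17, and without Mock sample 3 it was 0.54 (limma adjusted p = 0.646). In GL3-GR it was −0.0026 at 4 hours (SE 0.39, interval −0.93 to 0.92, limma adjusted p = 1.00) and 0.06 at 24 hours (SE 0.13, interval −0.34 to 0.47, limma adjusted p = 0.913). The interval of GL3-GR at 4 hours is the widest of the 4 and covers changes of nearly 1 in either direction. Leaving out its DEX sample 1 moved that change to −0.43.

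**Figure D3:**
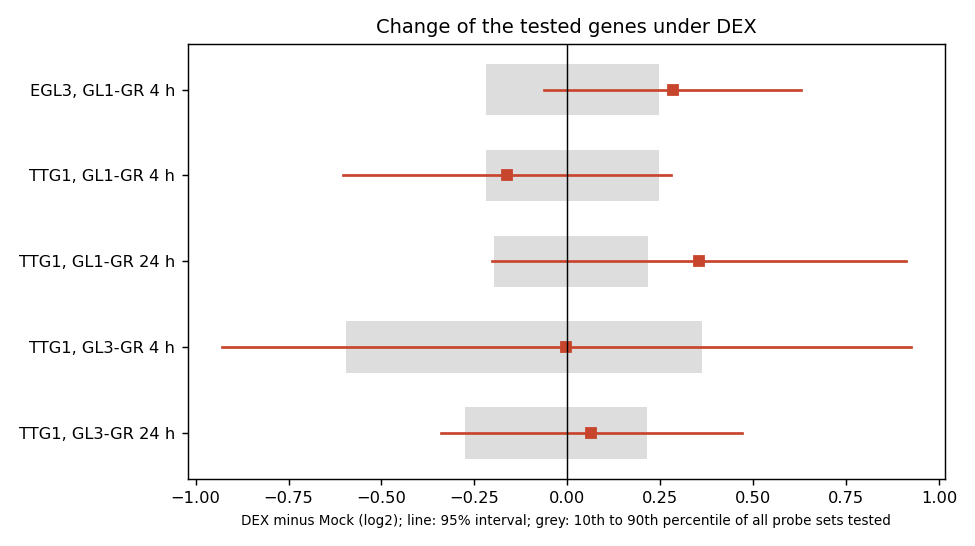
DEX minus Mock (horizontal axis, log2) for the 5 combinations of gene and set that could be tested, with the estimate as a square, its 95% interval as a line and the 10th to 90th percentile of all probe sets tested in that set as a grey bar. All 5 intervals include 0, and the changes run from −0.16 to 0.35.

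Few probe sets of any kind passed in these comparisons. In GL1-GR at 4 hours limma called 1 of 13772 probe sets (0.00726%), which has no named gene here and is none of the 6 genes, with 1.52 more under DEX on the log2 scale (limma, SE 0.08, adjusted p = 0.00867). It called 0 of 13711 (0%) in GL1-GR at 24 hours, 0 of 14348 (0%) in GL3-GR at 4 hours and 0 of 13633 (0%) in GL3-GR at 24 hours. At an unadjusted p under 0.05 the counts were 1063, 261, 433 and 812 in the order given. The methods' t-test called 0, 1, 0 and 0 after Benjamini-Hochberg adjustment and 168, 33, 73 and 111 at its own unadjusted threshold, none of them *EGL3* or *TTG1*. The samples are described in the study as independent materials, whereas the labels give only a sample number, and the p-values measure the spread between these samples.

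The difference of the DEX responses was tested as well, in 1 limma fit over all 22 arrays. For *TTG1* it was 0.16 between lines at 4 hours (GL3-GR minus GL1-GR, SE 0.40, adjusted p = 0.942) and −0.29 at 24 hours (SE 0.45, adjusted p = 1.00). Between times (24 minus 4 hours) it was 0.52 in GL1-GR (SE 0.40, adjusted p = 1.00) and 0.07 in GL3-GR (SE 0.45, adjusted p = 1.00). For *EGL3* the difference between lines at 4 hours was −0.39, but *EGL3* in GL3-GR was partly at the floor. It entered this fit through GL1-GR at 4 hours alone, so no p-value is given for it. These differences were called for 0.0306% of the 16349 probe sets between lines at 4 hours, 0% between lines at 24 hours, 0.00612% between times in GL1-GR and 0.00612% between times in GL3-GR. At an unadjusted p under 0.05 in limma the counts were 1504, 125, 256 and 881 in the same order. Of the 6 genes only *EGL3* and *TTG1* entered this fit, so the others could not be called. *TTG1* was not among the calls.

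Between lines and between times, *TTG1* differed past the threshold in some comparisons on the deposited scale, as did many other probe sets. *EGL3* lay above the filter only in GL1-GR at 4 hours and entered the fit over 22 arrays through that set alone. Its nearly constant values at the floor also narrow the spread that this fit shares among the groups. The differences of its level are therefore described without p-values. Line, time and the normalization of each set cannot be told apart here. Among Mock plants at 4 hours, *EGL3* was lower in GL3-GR, with a log2 difference of −2.31. Its GL3-GR arrays were partly at the floor, so that the size of the true difference is not known on either scale. At that time 91.1% of the probe sets were called between the lines, their median difference was −2.12, and 44.1% of them were at or below the value of *EGL3*. After quantile normalization of the 22 arrays the median was −0.04 and the difference of *EGL3* was −1.04. Then 23.0% of the probe sets were at or below it and 64.9% were called. On the deposited scale the summed level of the 4 root markers in these Mock plants was also higher in GL1-GR (23.2 to 23.7) than in GL3-GR (16.9 to 19.0). That of the 2 green tissue markers was 25.7 to 26.1 against 23.4 to 23.9. Array medians were lower in GL3-GR at 4 hours as well, and 2 of the 4 root markers were at the floor of both sets. *EGL3* is itself mutated in the GL3-GR line. The part of that mutation, of tissue or of scale in the difference of *EGL3* was not tested.

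*TTG1* changed direction with the scale in the same comparison. It was lower in GL3-GR by −1.79 on the deposited scale (SE 0.28, limma adjusted p = 1.09e-05) and higher by 0.80 after quantile normalization (SE 0.26, limma adjusted p = 0.0116). Among Mock plants at 24 hours, *TTG1* differed by 0.42 (SE 0.31, limma adjusted p = 0.388), or 0.26 after quantile normalization, and *EGL3*, at the floor in both lines, by −0.02. There 29.6% of the probe sets were called, and 20% after quantile normalization.

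From 4 to 24 hours in GL1-GR Mock plants, *EGL3* fell by 2.88 on the log2 scale, from 5.04 to the floor, where the true distance is not known. Only 9.37% of the probe sets were at or below that value, while 68.2% were called. With quantile normalization *EGL3* fell by 1.39, with 58.6% called. Over the same interval *TTG1* differed by 0.59 (SE 0.28, limma adjusted p = 0.0712), and by 0.75 after quantile normalization (limma adjusted p = 0.0188). In GL3-GR Mock plants *EGL3* differed by −0.59 between the times, between values at or near 2 different floors, and by −0.37 after quantile normalization. *TTG1* rose there by 2.80 (SE 0.31, limma adjusted p = 1.96e-07) against a median of 1.98 over all probe sets, and the difference was 0.21 after quantile normalization (limma adjusted p = 0.554). The shares called were 86.3% on the deposited scale and 53.9% after quantile normalization.

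**Figure D4:**
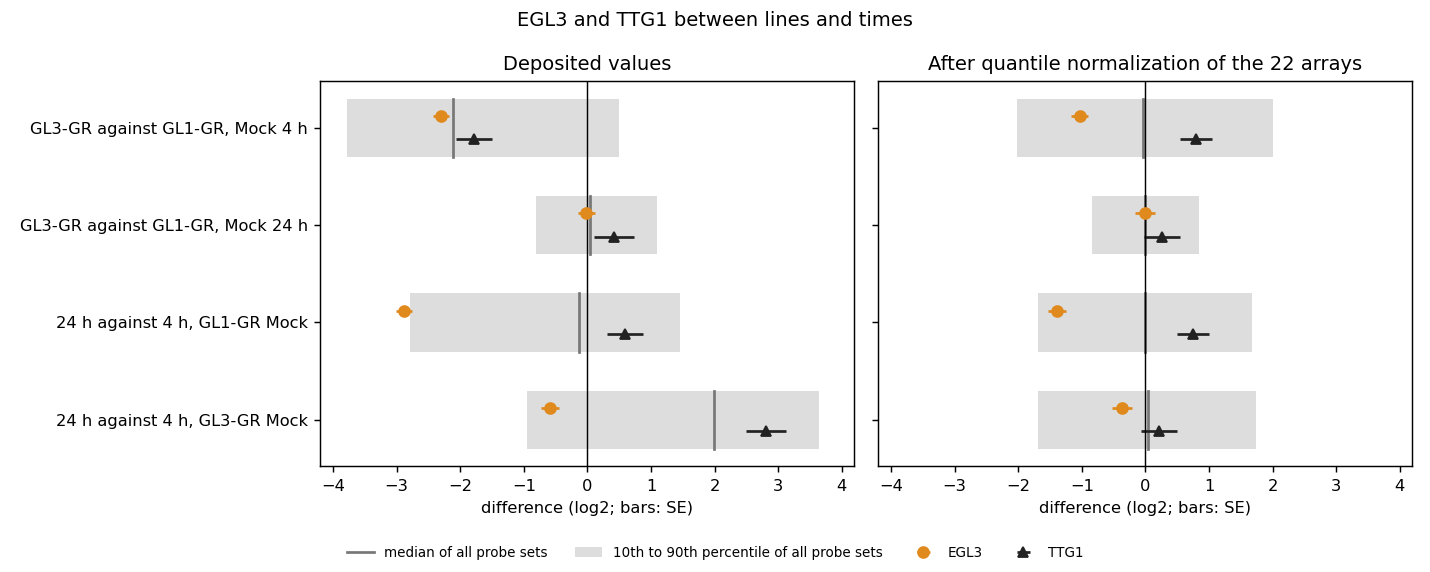
Differences of *EGL3* (orange circles) and *TTG1* (black triangles) between lines and between times in Mock plants (horizontal axis, log2, bars are SE), on the deposited values (left) and after quantile normalization of the 22 arrays (right), with the 10th to 90th percentile of all probe sets as grey bars and their median as a grey line. *EGL3* is below 0 in both panels between lines at 4 hours and between times in GL1-GR. Its other points compare values at or near floors, where the sign has no meaning. *TTG1* between lines at 4 hours goes from −1.79 to 0.80.

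None of the other listed genes of the pathway was called in a DEX comparison. Of 9 MYB partners of the bHLH factors, such as the *GL1* homologue *MYB23*, only *MYB23* had a named probe set, and it was at the floor of all 4 sets. None of the 2 bHLH relatives, the 2 WD40 relatives and the 7 relatives of *GL2* had one. Of the 7 R3 MYB repressors 4 were measured (*TRY*, *CPC*, *ETC1* and *MYBL2*), and 0 were called in any set. Their median log2 change was −0.06 in GL1-GR at 4 hours (3 tested, median of all probe sets 0.01), −0.02 in GL1-GR at 24 hours (3 tested, all probe sets 0.01), −0.71 in GL3-GR at 4 hours (4 tested, all probe sets −0.09) and 0.06 in GL3-GR at 24 hours (3 tested, all probe sets −0.01). The last of these medians is the change of *CPC*, which was at the floor of that set and so carries no comparison. The smallest p among the repressors belonged to *CPC* in GL3-GR at 4 hours, 6.05 ± 1.16 (SD, n = 3) under Mock and 4.87 ± 0.21 (SD, n = 3) under DEX, a difference of −1.18 (SE 0.56, limma adjusted p = 0.986). Without Mock sample 3 it was −0.54, and without Mock sample 1 −1.68.

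**Figure D5:**
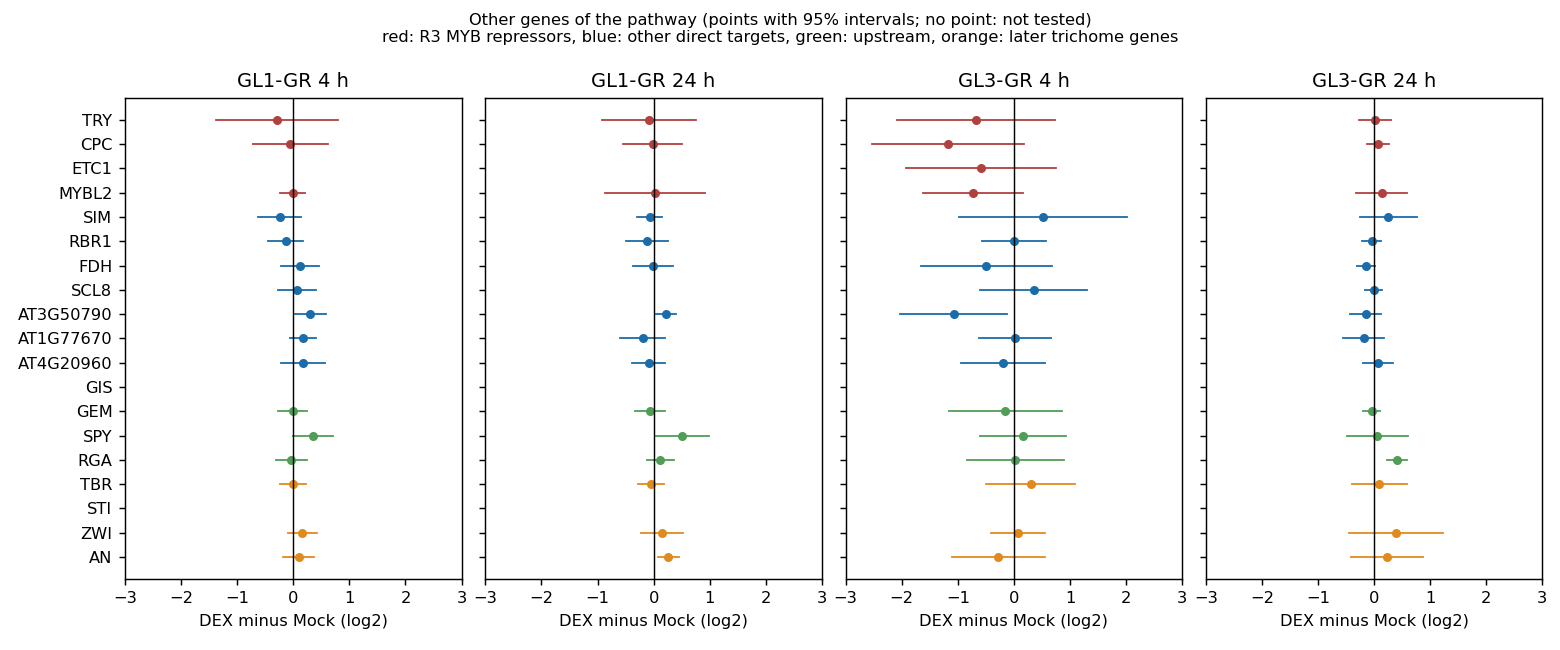
DEX minus Mock (horizontal axis, log2, points with 95% intervals) for 19 further genes of the pathway in the 4 sets, coloured by list, where a gene without a point was not tested in that set. The 4 R3 MYB repressors lie below 0 in GL3-GR at 4 hours with intervals that include it, and none of the genes was called.

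Outside the repressors, 7 of 8 other direct targets, 4 of 6 upstream genes and 4 of 6 later trichome genes had probe sets, and 0 were called in any of the 4 sets. The direct target with the smallest p was AT3G50790 in GL1-GR at 24 hours, with 9.04 ± 0.06 under Mock and 9.26 ± 0.01 under DEX (SD, n = 3) and a difference of 0.22 (SE 0.07, limma adjusted p = 1.00). In the other sets AT3G50790 differed by 0.30 in GL1-GR at 4 hours (SE 0.12, limma adjusted p = 0.625). In GL3-GR it differed by −1.07 at 4 hours (SE 0.40, limma adjusted p = 0.986) and by −0.15 at 24 hours (SE 0.09, limma adjusted p = 0.786). At 4 hours in GL3-GR the difference passed with a spread pooled over 22 arrays (limma adjusted p = 0.0471), but not in the other 13 of 14 alternatives. The pooled spread understates that of this set (residual SD 0.481, others at most 0.243) and raised its calls from 0 to 146. The upstream gene was *RGA*, which encodes a DELLA repressor of gibberellin signalling, in GL3-GR at 24 hours. It had 5.77 ± 0.04 under Mock and 6.18 ± 0.03 under DEX (SD, n = 2), a difference of 0.41 (SE 0.06, limma adjusted p = 0.786). The later gene was *AN*, which acts in trichome branching, in GL1-GR at 24 hours, with 7.23 ± 0.02 under Mock and 7.49 ± 0.08 under DEX (SD, n = 3), a difference of 0.26 (SE 0.08, limma adjusted p = 1.00). Neither *RGA* nor *AN* passed after adjustment.

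Genes with patterns most like those of the measured members were sought among probe sets with 1 named gene. For *TTG1*, over 22 arrays and with each set scaled to the same mean and SD, they were AT1G45230 (r = 0.812), *VPS22* (r = 0.808) and AT5G38460 (r = 0.801) among 6289 candidates. For *EGL3*, over the 6 arrays of GL1-GR at 4 hours, they were AT1G77500 (r = 0.995), AT3G56370 (r = 0.986) and AT1G01670 (r = 0.983) among 7498. Over the same 6 arrays *ATMYC1* was most like AT2G14900 (r = 0.995), AT1G26740 (r = 0.986) and AT5G01980 (r = 0.966). The likeness of *GL2* to AT1G59970 (r = 1.00), AT3G43270 (r = 0.999) and AT5G09840 (r = 0.999) rests on 1 array, DEX sample 3. With so many candidates and few arrays that share a normalization, these correlations are a description only.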

How the data were processed

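Total RNA was amplified with the NuGEN Ovation system and hybridised to Affymetrix ATH1 arrays. The authors' deposited values are log2 GCRMA expression values per probe set, made in R with affylmGUI, and the version and annotation are not given in the sources used here. The 4 sets of arrays had different lowest values, medians and spread, and whether they were normalized separately is likewise not given. How the arrays were centred remains unknown, and the arrays' number limits the precision. Of 22810 probe sets, 64 controls were left out. The platform table named 1 gene for 13513 probe sets and several for 503, a further 53 (*GL1*, *EGL3*, *TTG1*, *GL2* and *TTG2* among them) were named through identifiers in the study's trichome gene list, and 8677 had no name. Each set was fitted in limma 3.58.1 (R 4.3.3), DEX against Mock, with Benjamini-Hochberg adjustment and a threshold of 0.05. Contrasts between lines and times came from 1 fit over 22 arrays. The procedure was tested on simulated data. The 6 genes and all lists were chosen with earlier results of these data known. The text names the 6 genes, and otherwise the list genes with the smallest p and the 3 probe sets most like a gene. Alternatives were a pooled spread, quantile normalization, other filters (none, or the 60th percentile), a trend in eBayes, array weights, the methods' t-test, a replicate block, other margins for the floor and leaving out each array.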

Additional observations from a re-analysis of the deposited data

Results flagged for a closer look

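AT3G50790, the listed direct target with the smallest p, had a higher mean under DEX in GL1-GR and a lower one in GL3-GR, at both times. It was called in none of the 4 sets. In GL3-GR at 24 hours, with 2 arrays per group, 5 of the 7 direct targets tested were lower under DEX and 2 were higher. The gap between the lines' log2 changes (GL1-GR minus GL3-GR) was 1.37 at 4 hours and 0.37 at 24 hours. In the limma fit over all 22 arrays the difference missed the threshold at 4 hours (SE 0.34, unadjusted p = 0.000929, adjusted p = 0.234) and at 24 hours (SE 0.38, adjusted p = 1.00). That fit shares 1 spread among sets whose residual SD ran from 0.160 to 0.481.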

How the results depend on the processing

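The count of probe sets called in GL1-GR at 4 hours (1) was 4 with a spread pooled over 22 arrays and 0 with the filter at the 60th percentile, the methods' t-test, the replicate block or any 1 array left out (0 to 0). In GL1-GR at 24 hours (0) it was 1 with no filter and with the methods' t-test. In GL3-GR it was 146 at 4 hours (0) with the pooled spread and 1 at 24 hours (0) with the filter at the 60th percentile. From 4 to 24 hours in GL3-GR it was 8810 after quantile normalization in place of 14117. *TTG1* under DEX in GL3-GR at 4 hours turned to 0.13 after quantile normalization. Leaving out each array in turn, the *TTG1* change ran from −0.29 to 0.036 in GL1-GR at 4 hours, from 0.17 to 0.54 in GL1-GR at 24 hours, from −0.43 to 0.26 in GL3-GR at 4 hours and from −0.056 to 0.19 in GL3-GR at 24 hours, and that of *EGL3* in GL1-GR at 4 hours from 0.21 to 0.42. The *CPC* change in GL3-GR at 4 hours ran from −1.68 to −0.54, and that of AT3G50790 from −1.50 to −0.74 in GL3-GR at 4 hours and from −0.25 to −0.058 in GL3-GR at 24 hours. Between lines at 4 hours *TTG1* turned to 0.80 after quantile normalization. Between times, *TTG1* in GL1-GR passed the threshold after quantile normalization (0.75) and on values above each array's lowest (0.73). It also passed without Mock sample 1 of 24 hours (range over arrays left out 0.41 to 0.78). *TTG1* in GL3-GR (0.21) no longer passed after quantile normalization. *EGL3* in GL3-GR (−0.37 after quantile normalization) was at or near the floor at both times, so no verdict is given. With a margin of 1, 3 genes were at the floor of GL1-GR at 4 hours in place of 1 and 5 of GL3-GR at 4 hours in place of 2, and with the repeated value, chosen after seeing the data, 2 of GL1-GR at 4 hours. The cause was not tested in any of these. Same-numbered Mock and DEX samples deviated together with a positive r in the sets of 6 arrays (0.01 to 0.12, 0.06 to 0.36 and 0.07 to 0.30). Between samples of different number in these sets r ran from −0.39 to 0.39. In GL3-GR at 24 hours r was −0.14 for same numbers and 0.14 for crossed numbers, a single size with 2 arrays per group. The numbers are thus not shown to pair the samples, and the replicate block changed no call of *EGL3* or *TTG1*. Crossing the numbers in GL3-GR at 24 hours, chosen after seeing the data, left 0 calls.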
